A study of Mus musculus with 4 samples.

Results

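The genes described here are 10 immediate-early response genes, including AP-1 genes and *Egr1*, in sorted dendritic cell progenitors of the spleen: *Fosb*, *Fos*, *Fosl2*, *Jun*, *Junb*, *Jund*, *Atf3*, *Egr1*, *Ier2* and *Dusp1*. They were taken by symbol from the 40213 gene symbols of the count tables, and the list was drawn up because *Fosb* was lower in the libraries with the label TopBP1 cKO, called cKO-labelled below. The values of *Fosb* are therefore given as a description with no test. The other 9 members were chosen by name, with results of the same comparison known. All 10 members had counts in every library and passed the filter on low counts, together with 12393 genes in all.

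The study asked how TopBP1, a scaffold protein of DNA replication and the DNA damage response, acts as conventional dendritic cells (cDCs) develop. RNA-seq covered 4 libraries of CD24+ emergency progenitors (EPs), which are CD11c+CD117+ cells that expand under the growth factor Flt3L and can give rise to cDC1s. Both groups carried floxed *Topbp1* alleles on both chromosomes (TopBP1 fl/fl). The WT group (2 libraries) consisted of littermates without Cre, and the TopBP1 cKO group (2 libraries) carried CD11c-cre in addition, so that deletion depends on the activity of the CD11c promoter in each cell. All mice received 10 µg of Flt3L-Ig i.p. on days 0 and 3, and the splenic cells were sorted on day 9. The mice of the study were 7 to 10 weeks old, and neither the strain nor the number of mice behind a library is given in the labels. Because the labels do not say that replicates came from separate mice, the p-values measure only the spread between these libraries, which may be technical. Library totals were 14561583 and 15193831 counts for WT replicates 1 and 2, and 15148032 and 15093476 counts for cKO replicates 1 and 2.

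Immediate-early genes are transcribed within minutes of a stimulus from transcription factors that are already present in the cell, chiefly SRF with its ELK partners and CREB, which are switched on by MAP kinases and other kinases. FOS and JUN proteins pair through leucine zippers to form AP-1, which binds DNA as a dimer, whereas EGR1 is a zinc finger factor. In myeloid cells these factors are known as early responders to growth factors, cytokines, stress and handling, and feedback proteins such as DUSP1 soon shut the response down.

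*Topbp1*, the gene targeted in the cKO group, was examined first. Its level was 77.9 and 75.6 CPM (normalised read count, with library sizes scaled by TMM) in the WT libraries, 50.7 CPM in cKO replicate 1 and 82.7 CPM in cKO replicate 2. Only cKO replicate 1 was thus below the WT libraries. The counts were summed over the whole gene, so they cannot show whether the floxed part was deleted in either library. The study compared TopBP1 expression between the genotypes in splenic CD11c+ cells, which were not these libraries. The log2 fold change was −0.20 (SE 0.21, FDR 0.774, edgeR quasi-likelihood test). For this reason the libraries are called by their label throughout, and each is shown separately. Over all genes, the chi-square per degree of freedom between libraries was 13.5 for the WT pair and 11.2 and 12.6 for WT replicates 1 and 2 against cKO replicate 1, whereas the 3 pairs with cKO replicate 2 ran from 35.9 to 44.2, so cKO replicate 2 stood apart from the rest. The genes of the sort gate were also examined. *Kit*, which encodes CD117, stood at 481, 475, 395 and 383 CPM in WT replicates 1 and 2 and cKO replicates 1 and 2, the order used for all values below. *Itgax*, which encodes CD11c, stood at 620, 614, 690 and 649 CPM, and *Cd24a* at 972, 926, 885 and 756 CPM. All 3 genes of the gate were thus abundant in every library, which does not measure the purity of the sort.

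The start regions of 3 members are shown because *Fosb* chose the list, *Fos* is its closest relative here and *Dusp1* had the lowest log2 fold change of the members. The stretches run up to the last base before the transcription start in RefSeq for GRCm38.p6, on the coding strand, at chr7:19310046-19310165 (minus strand) for *Fosb*, chr12:85473770-85473889 (plus strand) for *Fos* and chr17:26508473-26508632 (minus strand) for *Dusp1*. Capitals mark TGACG, the core of the cAMP response element (CRE) bound by CREB and ATF proteins, the whole CRE TGACGTCA in *Dusp1*, and the TATA box TATAAA in *Fos*.
Fosb: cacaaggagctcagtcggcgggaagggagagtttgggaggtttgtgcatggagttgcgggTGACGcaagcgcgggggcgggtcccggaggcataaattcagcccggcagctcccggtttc
Fos: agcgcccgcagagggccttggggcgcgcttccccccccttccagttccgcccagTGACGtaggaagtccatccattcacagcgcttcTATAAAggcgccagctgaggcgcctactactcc
Dusp1: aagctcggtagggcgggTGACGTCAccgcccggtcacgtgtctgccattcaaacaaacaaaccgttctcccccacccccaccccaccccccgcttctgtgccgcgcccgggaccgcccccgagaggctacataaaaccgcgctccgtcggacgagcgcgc

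TGACG lay at −60 to −56 from the start in *Fosb* and at −66 to −62 in *Fos*, and the CRE lay at −143 to −136 in *Dusp1*. Upstream of the printed stretches, TGACG also lay at −129 to −125 in *Fos* and at −191 to −187 in *Dusp1*. Windows of 250 bases before and 50 bases after the start were searched on both strands for 8 members, while *Egr1* and *Ier2* were not searched. TGACG, which is also contained in every CRE, was found in 5 of the 8 (*Atf3*, *Fosb*, *Junb*, *Fos* and *Dusp1*), in 20.8% of 32851 windows of the same length and in 30.6% of the windows of genes tested here. The whole CRE was found in *Dusp1*, against 1.79% of all windows and 2.88% of those of genes tested. TATAAA, searched on the coding strand, was found in *Fos* at −33 to −28 and in *Junb* from the first transcribed base, against 8.32% of all windows and 4.38% of those of genes tested. The letters TGAGTCA (the AP-1 site, 5.2% of all windows and 3.59% of those of genes tested), GCGTGGGCG (an EGR site, 0.612% and 1.21%) and the CArG box of SRF (1.63% and 1.23%) matched none of the 8 windows. These matches describe the windows and are not evidence of binding. Sites farther from the start were not searched, so the lack of a match does not show that a gene has no such site. The 250 bases before the start had a median GC content of 64.8% in the 8 members, from 47.6% in *Jund* to 68.8% in *Fosb*, against 52.4% over all windows.

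Summed over the 9 members other than *Fosb*, the level was 1427 and 1382 CPM in the WT libraries, 1040 CPM in cKO replicate 1 and 771 CPM in replicate 2, and both cKO-labelled libraries were lower. For 7 of these 9 both cKO-labelled libraries lay below both WT libraries (20.8% of all genes tested), and their median log2 fold change was −0.48. With *Fosb*, the members summed to 1758 and 1728 CPM in the WT libraries, to 1217 CPM in cKO replicate 1 and to 935 CPM in replicate 2. In raw counts the members held 0.171% and 0.172% of the WT totals, against 0.122% and 0.0958% in the cKO-labelled libraries. For 8 members both cKO-labelled libraries lay below both WT libraries, for *Fosl2* both lay above, and for *Egr1* the groups overlapped. Over all genes tested, 20.8% had both cKO-labelled libraries below both WT libraries and 22.8% had both above. The log2 fold change was below 0 for 9 of 10 members, as for 48.8% of all genes tested, and above 0 for *Fosl2*, as for 51.2%. Its median was −0.54, against 0.01 over all genes tested. Leaving out cKO replicate 2 moved this median to −0.30, and leaving out replicate 1 moved it to −0.82. Because *Fosb* chose the list from this same comparison, nothing is read from these shares. In bulk RNA, fewer cells with active immediate-early genes and less such RNA per cell cannot be told apart.

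**Figure D1:**
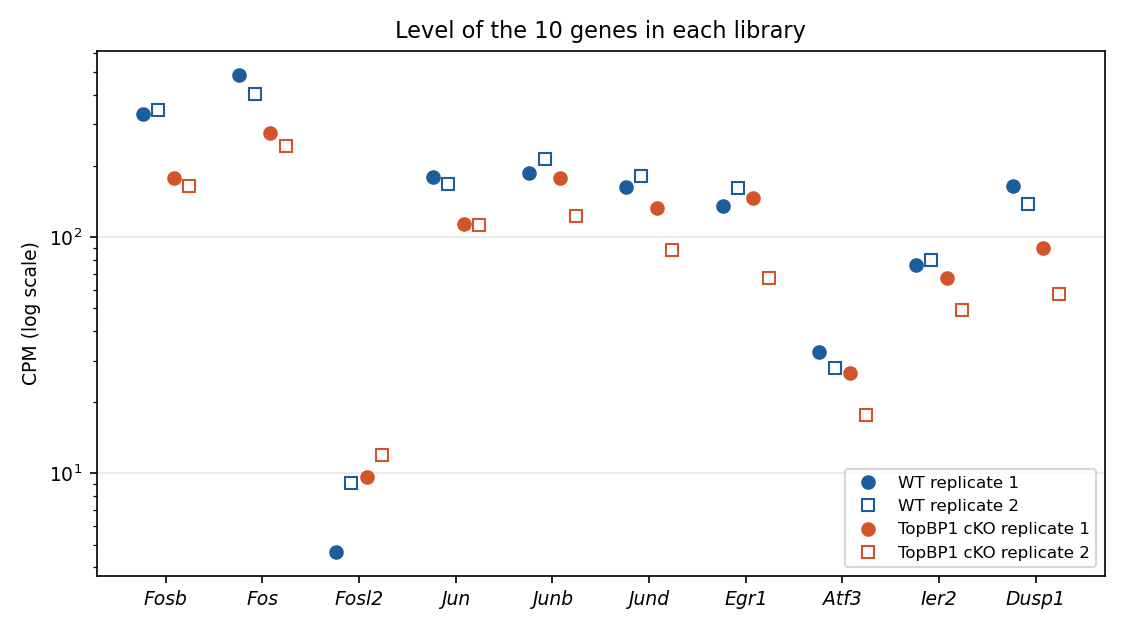
Level of each of the 10 members in CPM (vertical log axis), with 1 symbol per library: blue for WT, orange for the cKO-labelled libraries, filled circles for replicate 1 and open squares for replicate 2. Both orange symbols lie below both blue ones for 8 members, *Egr1* overlaps, and *Fosl2*, the lowest member, lies the other way.

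At FDR below 0.05, 0.0242% of all genes tested (3 genes) were lower and 0.0807% (10 genes) higher in the cKO-labelled libraries. Among the 9 members other than *Fosb*, 0 passed this threshold by the edgeR quasi-likelihood test. At an unadjusted p below 0.05 the test named 5 of the 9, all lower (*Fos*, *Jun*, *Jund*, *Ier2* and *Dusp1*), and over all genes tested it named 3.77% as lower. The DESeq2 Wald test and the edgeR likelihood ratio test each called 3 of the 9 lower at FDR below 0.05 (*Fos*, *Jun* and *Dusp1*), and over all genes they called 0.283% and 0.436% lower. With the replicate number as a block, which does not pair these libraries, 5 of the 9 were called lower, and 0.88% of all genes. The calls depended on single libraries, for members and for all genes alike. Without cKO replicate 1, 8 of the 9 were called lower, and 9.33% of all genes. Without cKO replicate 2, 3 of the 9 were called lower, and 0.633% of all genes. Without WT replicate 1 or WT replicate 2, 0 of the 9 passed, and 0.0232% and 0% of all genes were called lower. With 2 libraries against 2, an exact permutation test of a single gene cannot give a p below 0.333.

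The FOS family supplies the partners that JUN proteins need for the most stable AP-1 dimers. *Fosb* encodes a FOS protein with a strong activation domain. It had 331 and 346 CPM in the WT libraries and 177 and 164 CPM in the cKO-labelled libraries, from 4684, 5236, 2698 and 2531 counts. Replicates differed by little, and both cKO-labelled libraries had about the same level. The group means were 339 ± 10.9 CPM and 170 ± 9.49 CPM (SD, n = 2 each), so that the cKO-labelled level was 50.3% of the WT level, a log2 fold change of −0.99 (SE 0.12). Nearly all *Fosb* counts fell on a single RefSeq transcript, NM_008036.2, with 98%, 98.5%, 99.1% and 96.4% in the 4 libraries. The other row, NM_001347586.1, held 95, 76, 23 and 90 counts, with the lowest and a high value both in the cKO-labelled libraries. The lower *Fosb* sum thus followed the row NM_008036.2, which had 4589, 5160, 2675 and 2441 counts. How reads shared between transcripts were counted is not given in the sources used here, so rows of a gene are not read as isoforms.

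*Fos*, the founding member of the family and the most abundant member here, had 487 and 402 CPM in the WT libraries and 275 and 244 CPM in the cKO-labelled libraries. The WT libraries differed from each other by 0.28 on the log2 scale, less than the gap to the nearest cKO-labelled library. The log2 fold change was −0.77 (SE 0.14, FDR 0.232). The ratio of *Fos* to *Fosb* in CPM was 1.47, 1.16, 1.55 and 1.49, so *Fos* exceeded *Fosb* in every library, and the 3 higher ratios came from both groups.

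*Fosl2* encodes FRA2, a FOS-related protein without the strong activation domain that usually appears later in a response. It was the exception among the members, with 4.66 and 9.13 CPM in the WT libraries and 9.65 and 12 CPM in the cKO-labelled libraries. Its groups did not overlap, but WT replicate 2 lay next to cKO replicate 1, and the counts were low (66, 138, 147 and 186). The log2 fold change was 0.65 (SE 0.33, FDR 0.532), ranging from 0.25 to 1.2 when libraries were left out in turn. On its curated transcript alone, NM_008037.4, the counts were 66, 117, 138 and 137. Per kilobase of transcript, *Fosl2* made up 0.224%, 0.493%, 0.826% and 1.14% of the FOS family sum, a minor share in each library.

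**Figure D2:**
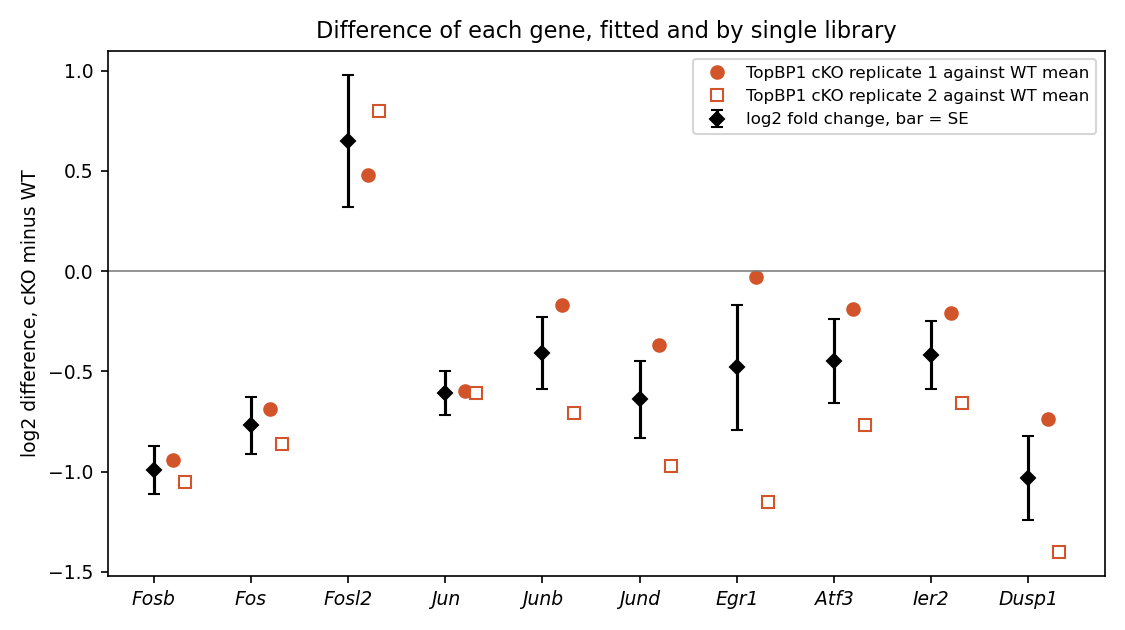
Log2 difference of each member, cKO-labelled against WT, with the fitted log2 fold change ± SE in black and each cKO-labelled library against the WT mean in orange (filled circle for replicate 1, open square for replicate 2). *Fosb*, *Fos* and *Jun* have both libraries close together, whereas *Egr1* runs from −0.03 to −1.15 and only *Fosl2* lies above 0.

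The JUN family can form AP-1 with FOS proteins or with itself. *Jun*, its strongest activator, had 179 and 168 CPM in the WT libraries and 114 and 113 CPM in the cKO-labelled libraries. Within each group the replicates nearly coincided, with 2529, 2532, 1740 and 1753 counts. The log2 fold change was −0.61 (SE 0.11, FDR 0.237), and leaving out any library left it between −0.66 and −0.56, the narrowest such range of the members other than *Fosb* in these fits.

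*Jund*, which is present in many resting cells and can restrain growth, had 163 and 182 CPM in the WT libraries and 133 and 87.8 CPM in the cKO-labelled libraries. The groups did not overlap, but cKO replicate 2 lay 0.60 below replicate 1 on the log2 scale. For *Jund* the log2 fold change was −0.64 (SE 0.19, FDR 0.346), and it was −0.38 without cKO replicate 2 and −0.97 without replicate 1. Its counts were spread over a pair of rows that each held nearly equal parts (1151 and 1149 counts in WT replicate 1), so the rows could not be told apart and only their sum was used.

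*Junb*, a JUN protein that can oppose JUN at some genes and is abundant in myeloid cells, had 186 and 214 CPM in the WT libraries and 178 and 123 CPM in the cKO-labelled libraries. cKO replicate 1 lay just under WT replicate 1, and replicate 2 was clearly lower. For *Junb* the log2 fold change was −0.41 (SE 0.18, FDR 0.484), and it was −0.18 without cKO replicate 2 and −0.71 without replicate 1.

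Per kilobase, the FOS family summed to 319, 283, 179 and 161 CPM per kb and the JUN family to 256, 280, 214 and 156 CPM per kb. Both sums were lower in both cKO-labelled libraries. The FOS family made up 55.4%, 50.3%, 45.5% and 50.8% of the combined sum, so the groups overlapped in its share. *Jun* was 21.9%, 18.7%, 16.7% and 22.8% of the JUN family sum, and here too the groups overlapped.

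*Atf3* encodes a bZIP factor of the stress response that can pair with JUN proteins. It had 32.7 and 27.8 CPM in the WT libraries and 26.5 and 17.7 CPM in the cKO-labelled libraries. WT replicate 2 and cKO replicate 1 lay close together, and cKO replicate 2 was the lowest. *Atf3* did not pass the test (log2 fold change −0.45, SE 0.21, FDR 0.502). Its log2 fold change was −0.20 without cKO replicate 2 and −0.77 without replicate 1.

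*Egr1*, a transcription factor with a role in monocyte and macrophage differentiation, showed the widest gap between replicates. It had 136 and 161 CPM in the WT libraries, 146 CPM in cKO replicate 1 and 67.1 CPM in cKO replicate 2. Replicate 1 lay between the WT libraries, and replicate 2 alone was low. For *Egr1* the log2 fold change was −0.48 (SE 0.31, FDR 0.619), and it was −0.04 without cKO replicate 2 and −1.15 without replicate 1. Its paralogs, from a list of further immediate-early genes, were less abundant. *Egr2* had 3.89, 5.16, 3.35 and 1.88 CPM and *Egr3* had 13.3, 13.2, 9.06 and 11.9 CPM. In both the cKO-labelled libraries lay below WT, yet neither passed the test (FDR 0.505 and 0.613), and *Egr4* had no count in any library.

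*Ier2*, an immediate-early gene of the nucleus whose function is less well known, had 76.2 and 80.1 CPM in the WT libraries and 67.3 and 49.3 CPM in the cKO-labelled libraries. The WT libraries lay close together and above both others. *Ier2* did not pass the test (log2 fold change −0.42, SE 0.17, FDR 0.434). Its log2 fold change was −0.22 without cKO replicate 2 and −0.66 without replicate 1.

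*Dusp1* encodes a nuclear phosphatase that removes the activating phosphates of MAP kinases, above all p38 and JNK, and so ends the signal that induces it. It had 164 and 138 CPM in the WT libraries, 90.2 CPM in cKO replicate 1 and 57.2 CPM in cKO replicate 2. Both cKO-labelled libraries were well below WT, and they differed from each other by 0.66 on the log2 scale. The group means were 151 ± 18 CPM and 73.7 ± 23.3 CPM (SD, n = 2 each), and the log2 fold change was −1.03 (SE 0.21, FDR 0.307). It was −0.75 without cKO replicate 2 and −1.40 without replicate 1.

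The 2 cKO-labelled libraries did not stand at the same distance from WT. Relative to the WT mean, the median of the members was −0.29 in replicate 1 and −0.82 in replicate 2 on the log2 scale. All members but *Fosl2* were lower in replicate 2 than in replicate 1. The gap was small for *Jun* (0.01), *Fosb* (0.11) and *Fos* (0.17) and ran from 0.45 for *Ier2* to 1.12 for *Egr1* for the other members that were lower in replicate 2. The median absolute gap between the cKO-labelled libraries was 0.49 over the members and 0.25 over all genes tested. Between the WT libraries it was 0.22 and 0.14.

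**Figure D3:**
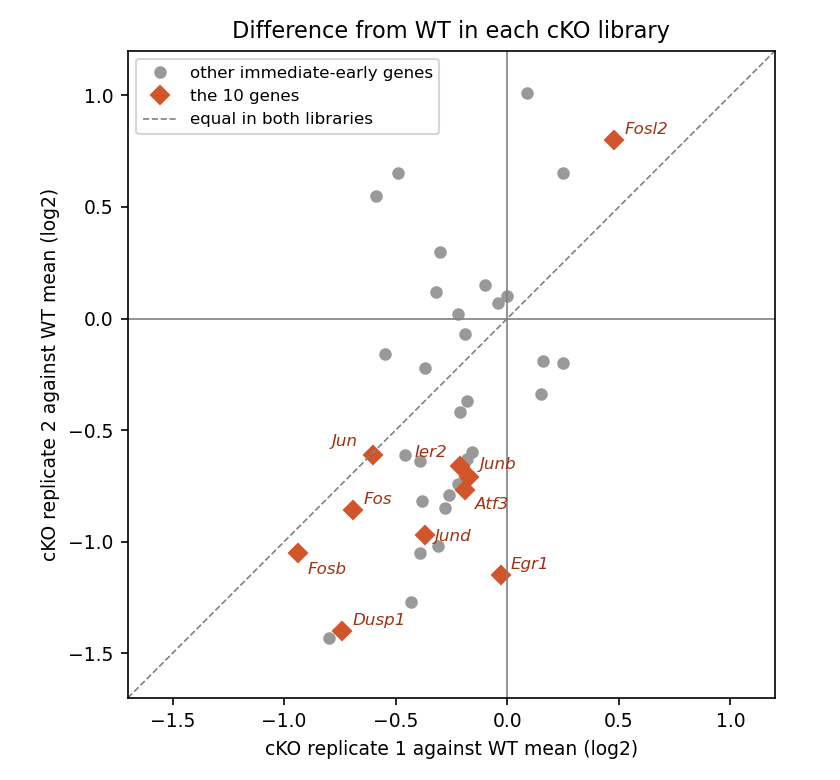
Log2 difference from the WT mean in cKO replicate 1 (horizontal) and cKO replicate 2 (vertical), with 1 point per gene: orange for the 10 members, grey for the 30 other immediate-early genes tested, and a dashed line where both libraries are equal. All members but *Fosl2* lie on or below the dashed line, *Jun* and *Fosb* close to it and *Egr1* farthest from it.

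Levels of different genes were compared per kilobase of transcript. In the WT libraries the order was *Fos* (211 ± 28.5 CPM per kb, SD, n = 2), *Junb* (111 ± 11), *Jund* (103 ± 8.34), *Fosb* (89.6 ± 2.89), *Dusp1* (75.8 ± 9.04), *Jun* (54.3 ± 2.48), *Ier2* (51.3 ± 1.8), *Egr1* (49 ± 5.85), *Atf3* (15.2 ± 1.76) and *Fosl2* (1.06 ± 0.483). The neighbours *Junb* and *Jund*, and the neighbours *Jun*, *Ier2* and *Egr1*, overlapped between libraries and cannot be ranked. In CPM, *Fos* and *Fosb* lay at percentiles 97.4 and 96.2 of all genes tested in WT, *Atf3* at 55.9 and *Fosl2* at 27.1. In the cKO-labelled libraries, *Fos* (123 ± 10.4 CPM per kb) remained the highest and *Fosl2* (1.66 ± 0.257) the lowest. The members also had few exons, a property that the choice of genes did not use and that related lists had in part. *Jun*, *Junb*, *Jund* and *Ier2* have 1 exon (40% of the members) and the other 6 have 3 or 4, against 2.54% of genes with 1 exon and a median of 9 exons over the 11081 tested genes with a matched transcript. The median number of exons was 3.5 in the members, 4 in the other immediate-early genes and 3 in the other bZIP genes, and 10.3% and 10% of these lists had 1 exon. The median transcript length of the members was 2.05 kb, against 2.86 kb over all genes.

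Genes with the most similar pattern over the 4 libraries were found by the root mean square distance of centred log2 (CPM + 1) values among 11386 genes with a mean of at least 20 counts. Among the 5 genes nearest to *Fosb* were *Ifi214* (distance 0.054), *Maf* (0.099), *Irag1* (0.108) and *Or10aa1* (0.114). Nearest to *Fos* were *Lifr* and *Enah* (0.049 each), *Usp22* (0.057), *Mras* (0.066) and *Crebrf* (0.073). Of the members, *Fos* ranked 26, *Jun* 55, *Dusp1* 71 and *Jund* 94 in likeness to *Fosb*, while *Ier2* (325), *Junb* (446), *Atf3* (491), *Egr1* (2059) and *Fosl2* (10846) were farther away. With 4 libraries, many genes share a pattern of this kind, and the distances are a description only.

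The pathway around the members was described by 5 lists, 103 genes in all, of which 94 were tested. At FDR below 0.05, 0 of the 94 were lower and 0 were higher by the edgeR quasi-likelihood test. At an unadjusted p below 0.05, 14 were lower and 6 were higher, against 3.77% and 6.95% of all genes tested. The DESeq2 Wald test called *Btg2* and *Rhob* lower and *Mmp9* higher, and the likelihood ratio test added *Maf* (lower) and *Plaur* (higher). Over all genes, these tests called 0.968% and 1.45% higher.

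Of 33 further immediate-early genes, 30 were tested, and their median log2 fold change was −0.28. For 16 of them both cKO-labelled libraries lay below WT (20.8% of all genes tested), for 1 both lay above (22.8% of all genes tested), and for 13 the groups overlapped. At an unadjusted p below 0.05, 10 were lower and 0 were higher (3.77% and 6.95% of all genes tested). *Rhob*, a small GTPase induced by growth factors and stress, had 30.5, 27.2, 16.5 and 10.7 CPM, with both cKO-labelled libraries low (log2 fold change −1.08, SE 0.23, FDR 0.307). *Btg2*, an antiproliferative gene, had 260, 274, 194 and 175 CPM, with replicates close together in each group (−0.53, SE 0.12, FDR 0.307). *Klf2*, a zinc finger factor of quiescent leukocytes, had 123, 133, 97.8 and 61.6 CPM, and *Ier5*, a regulator of heat shock factor, had 305, 341, 261 and 159 CPM. In both genes cKO replicate 2 was the lowest library. *Zfp36*, which encodes the mRNA-decay factor tristetraprolin, had 390, 443, 348 and 241 CPM with the same order (FDR 0.399). *Nr4a1*, a nuclear receptor gene, had 63.3, 76.5, 60.5 and 52.3 CPM, with a narrow gap between the groups (FDR 0.508). *Myc* did not share this order, with 37.6, 33.1, 37.5 and 71.3 CPM and only cKO replicate 2 high.

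Among 12 other AP-1 and related bZIP genes, 10 were tested, with a median log2 fold change of −0.23. For 4 both cKO-labelled libraries lay below WT (20.8% of all genes tested), for 1 both lay above (22.8%), and for 5 the groups overlapped. *Maf*, a large bZIP factor, had 79, 71, 33 and 29 counts (log2 fold change −1.34, SE 0.31, FDR 0.307), low in every library. *Batf3*, the partner of JUN proteins needed for cDC1s, had 85.9, 118, 102 and 69.1 CPM, and its groups overlapped (FDR 0.711). *Fosl1*, which encodes FRA1, had 0, 0, 2 and 0 counts and was not tested.

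The 28 upstream kinases and transcription factors were all tested, and their median log2 fold change was −0.02. For 4 of them both cKO-labelled libraries lay below WT (20.8% of all genes tested) and for 3 both lay above (22.8%). For 21 the groups overlapped, as for 6995 of the 12393 genes tested. *Srf*, the central activator of immediate-early promoters, had 62, 66.8, 66 and 64.3 CPM (log2 fold change 0.02, SE 0.12), and *Creb1* had 182, 167, 156 and 177 CPM (−0.06, SE 0.12). *Mapk9*, which encodes the kinase JNK2, had 92.6, 98.5, 81.9 and 64.2 CPM. It was the only gene of this list at an unadjusted p below 0.05 by the edgeR quasi-likelihood test (FDR 0.417). At that p, 3.77% of all genes tested were lower and 6.95% were higher.

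Of 14 negative regulators of MAP kinase signalling, AP-1 and EGR1, 13 were tested, with a median log2 fold change of 0.05. For 2 of them both cKO-labelled libraries lay below WT (20.8% of all genes tested) and for 2 both lay above (22.8%). For 9 the groups overlapped, as for 6995 of the 12393 genes tested. At an unadjusted p below 0.05 by the edgeR quasi-likelihood test, 1 was lower and 2 were higher (3.77% and 6.95% of all genes tested). *Dusp6*, a phosphatase specific for ERK, had 5.72, 4.76, 7.09 and 17.7 CPM, and *Spred1*, an inhibitor of RAS signalling, had 8.97, 9.86, 10.3 and 29.9 CPM. Both were clearly high in cKO replicate 2 only, the library in which *Dusp1* was lowest, and neither passed the test (FDR 0.361 and 0.441). *Nab2*, the co-repressor of EGR1, had 8.2, 9.26, 5.58 and 6.27 CPM, lower in both cKO-labelled libraries (FDR 0.457).

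Of 16 known AP-1 target genes, 13 were tested, and the median log2 fold change was 0.12. For 6 of them both cKO-labelled libraries lay above WT (22.8% of all genes tested), for 2 both lay below (20.8% of all genes tested), and for 5 the groups overlapped. *Plaur*, the urokinase receptor, had 19, 22, 59 and 58 counts (log2 fold change 1.44, SE 0.35, FDR 0.307). *Mmp9*, a matrix metalloproteinase, had 79, 84, 155 and 302 counts (1.41, SE 0.32, FDR 0.307). Both genes were thus above WT in both cKO-labelled libraries. The genes below WT in both were *Hmox1*, which encodes heme oxygenase 1, with 173, 223, 114 and 152 counts (−0.64, SE 0.23, FDR 0.384), and *Ccl4*, a chemokine gene, with 32, 23, 9 and 20 counts (−0.99, SE 0.52, FDR 0.548).

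**Figure D4:**
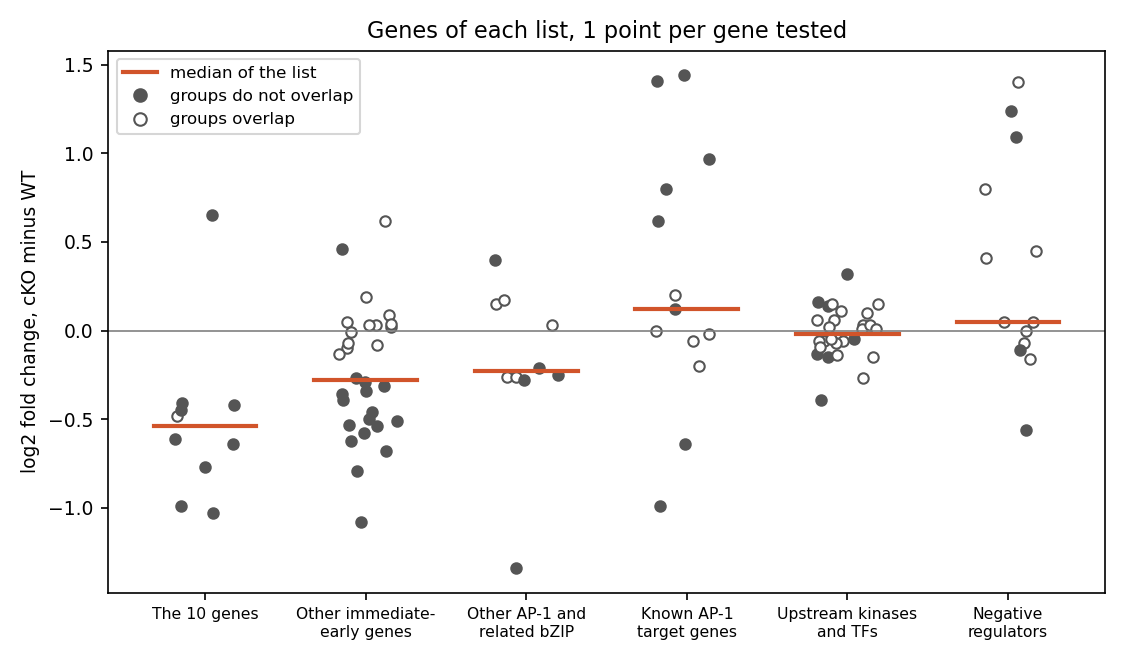
Log2 fold change (vertical) of every tested gene of the members and of the 5 pathway lists, with 1 point per gene, filled where the groups do not overlap and open where they do, and an orange line at the median of each list. The median lies at −0.54 for the members, −0.28 for the other immediate-early genes, −0.23 for the other bZIP genes, 0.12 for AP-1 targets, −0.02 for upstream factors and 0.05 for negative regulators.

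Other gene groups also differed between the libraries, and their part in the result was not tested. The 20 cell cycle genes were all higher in both cKO-labelled libraries, with a median log2 fold change of 1.27, although 0 passed FDR below 0.05 and 20 had an unadjusted p below 0.05 by the edgeR quasi-likelihood test. Over all genes tested, 22.8% were higher in both libraries and 6.95% were higher at that p. They summed to 778, 742, 985 and 2598 CPM, with *Mki67* the most abundant, so cKO replicate 2 had the highest sum of cell cycle genes and the lowest of the members. Of 14 neutrophil markers, 12 were above WT in both cKO-labelled libraries (22.8% of all genes tested) and 6 were called higher at FDR below 0.05 (0.0807% of all genes tested). They summed to 1512, 1258, 3251 and 2507 CPM, and none was at 0 in every library. The most abundant was *Mpo*, which myeloid progenitors also express, as they do *Elane*. Without these genes the sums were 816, 769, 2248 and 2278 CPM, and all 12 remaining markers were above WT in both cKO-labelled libraries, at about the same sum in each.

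The 10 heat-shock chaperones summed to 12030, 11262, 10738 and 10489 CPM, and *Hspa8* was the most abundant. Of these genes, 7 had a log2 fold change above 0 and 3 below, with a median of 0.06, and the heat-inducible ones differed among themselves. *Hspa1a* had 1551, 1295, 984 and 359 CPM (log2 fold change −1.08, FDR 0.397) and *Hspa1b*, a near-identical copy with which it can share reads, had 2080, 1809, 1491 and 568 CPM (−0.92, FDR 0.457), the same order as the member sums. *Dnajb1* had 150, 112, 119 and 67.3 CPM, with overlapping groups. *Hsph1* (62.7, 52.7, 59.9 and 122 CPM) and *Hsp90aa1* (556, 524, 608 and 950 CPM) were highest in cKO replicate 2, where the members were lowest. The 11 EP and cDC1 markers summed to 9040, 9113, 8679 and 7730 CPM, with *Irf8* the most abundant, and the sum was lower in both cKO-labelled libraries. For 7 of the 11 both cKO-labelled libraries lay below WT (20.8% of all genes tested), and 9 had a log2 fold change below 0 (48.8% of all genes tested). By the same test 0 passed FDR below 0.05, and at an unadjusted p below 0.05 there were 2 lower and 1 higher (3.77% and 6.95% of all genes tested).

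The markers of 5 further kinds of cells were less abundant than the members in sum. The monocyte and macrophage markers summed to 607, 581, 693 and 532 CPM (9 of 10 tested, most abundant *Ccr2*) and the pDC markers to 209, 217, 183 and 182 CPM (7 of 8 tested, most abundant *Tcf4*). The T and NK cell markers summed to 192, 220, 174 and 223 CPM (6 of 8 tested, most abundant *Cd8a*, which cDCs can express), with *Cd3e* at 7, 5, 24 and 7 counts. Nearly all of that sum was *Cd8a*. The other 7 genes summed to 13.5, 14, 25.9 and 17.7 CPM, and the 5 of them that were tested had a median log2 fold change of 1.13. For 4 of these 5 both cKO-labelled libraries lay above WT (22.8% of all genes tested). By the edgeR quasi-likelihood test 0 passed FDR below 0.05. At an unadjusted p below 0.05, 2 were higher (6.95% of all genes tested). *Cd3g* had 13, 13, 41 and 24 counts and *Ncr1* 12, 17, 38 and 34 counts. For 5 of 7 tested B cell markers both cKO-labelled libraries were above WT, which held for 22.8% of all genes tested. The B cell markers summed to 73.7, 68.1, 82.2 and 85.9 CPM (7 of 8 tested, most abundant *Cd22*), and the erythroid markers to 18, 14.7, 19.3 and 19.6 CPM (5 of 8 tested, most abundant *Hba-a1*). Of these 5 sums, that of the pDC markers was lower in both cKO-labelled libraries, as for the members, and the other 4 were not. Single pDC markers went both ways, with a median log2 fold change of −0.02 over the 7 tested. For 2 of them both cKO-labelled libraries lay below WT (20.8% of all genes tested) and for 2 both lay above (22.8%).

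**Figure D5:**
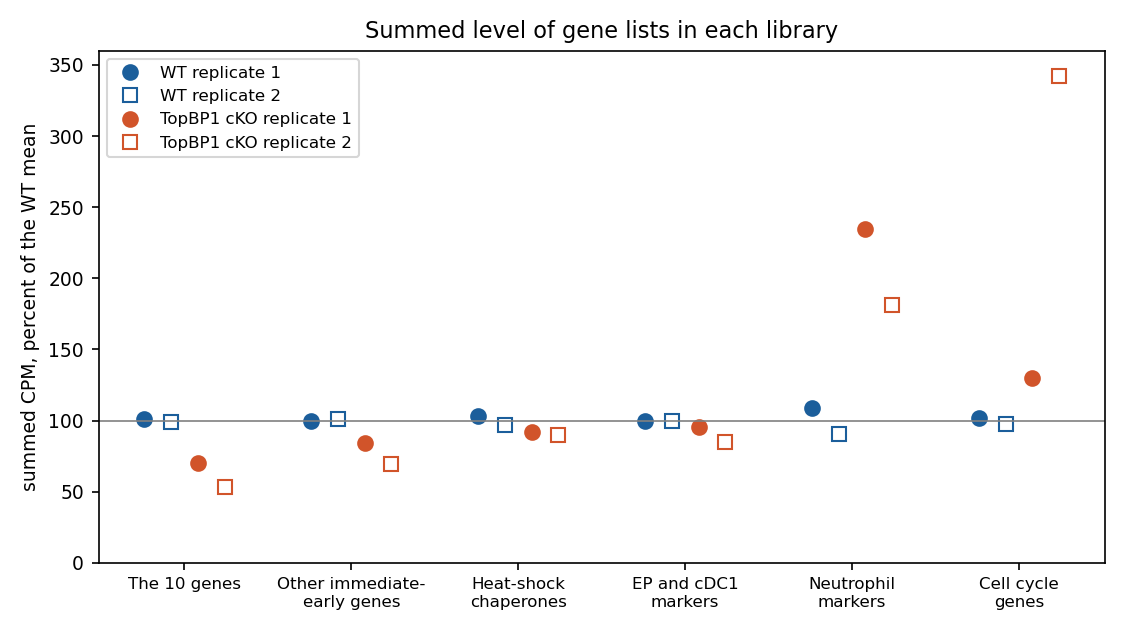
Summed CPM of the members and of 5 other gene lists in each library, as a percentage of the WT mean of that list (linear axis from 0), with blue symbols for WT, orange for the cKO-labelled libraries, filled circles for replicate 1 and open squares for replicate 2. The members stand at 69.8% and 53.6% in the cKO-labelled libraries, the cell cycle genes at 130% and 342%, and the neutrophil markers at 235% and 181%.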

How the data were processed

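The authors deposited whole-number counts per RefSeq transcript, with its gene symbol, for each of the 4 libraries (CORALL RNA-seq V2 kit). The submitters' processing notes name GRCm39, GATK, fastp, STAR and Salmon without versions or roles. The rule for reads shared between transcripts and the use of strand are not given in the sources used here. The labels name RNAiso Plus for RNA extraction and the study's methods another kit.

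Counts were summed per symbol over 137259 rows (13 rows for the members). Genes passing filterByExpr were tested with edgeR 4.0.16 in R 4.3.3 (TMM, glmQLFit, glmQLFTest, Benjamini-Hochberg over 12393 genes), and the SE is the absolute log2 fold change divided by √F. CPM used TMM effective library sizes. The common biological coefficient of variation was 15.2%. No pair of libraries was a duplicate (chi-square per degree of freedom at least 11.2). Lengths and exons are those of the GENCODE M21 transcript paired with each RefSeq accession, and start regions are from RefSeq for GRCm38.p6, a build other than the one in the notes, so no positions of the counted transcripts are given.

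The members and the 14 other gene lists were chosen with earlier results of these data known. Genes named are the members, *Topbp1*, list genes where a list is reported, and the 5 genes nearest to *Fosb* and to *Fos*, of which 1 is not reported here. The 11 alternatives were DESeq2 size factors, upper quartile factors, no filter, the DESeq2 1.42.0 Wald test, the edgeR likelihood ratio test, a replicate block, each transcript separately, and leaving out each library in turn.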

Additional observations from a re-analysis of the deposited data

How the results depend on the processing

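No member's log2 fold change changed sign under any of the 11 alternatives, and 9 of 10 were below 0 under each. Calls at FDR below 0.05 depended on the test and on single libraries. Of the 9 members other than *Fosb*, which is given no test, 0 were called lower by the quasi-likelihood test, 3 by the DESeq2 Wald and by the likelihood ratio test, and from 0 to 8 with a library left out (a count chosen after the data were seen). All genes called lower numbered 3, against 0 with upper quartile factors and for each transcript, 31 by the Wald test, 54 by the likelihood ratio test, and 0 to 1193 with a library left out. All genes called higher numbered 10, against 16 with no filter, 106 by the Wald test, 180 by the likelihood ratio test, 0 for each transcript and 1 to 1432 with a library left out. Pathway genes called lower numbered 0, against 2 by the Wald test, 3 by the likelihood ratio test and 0 to 18 with a library left out, and those called higher numbered 0, against 1, 2 and 0 to 13. The median of the members, −0.54, ran from −0.82 to −0.30 with a library left out. The highest counts and the lowest median came without cKO replicate 1. A lone library left in a group was assumed to vary like the other group. The causes of these shifts were not tested.

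The replicate numbers do not pair the libraries (correlation of deviations −0.046). With a replicate block, the counts were 5 of the 9 members lower, 109 genes lower and 395 higher, and 6 pathway genes lower and 5 higher. Both the 2 libraries a group and, for *Fosl2* and other genes with few counts, the depth limit the precision, and their shares were not compared.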
